A study of Mus musculus with 18 samples.

Results

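Fully grown mouse oocytes with a Zfy2 transgene were set against oocytes with a multi-copy Zfy1 transgene, across all genes measured on an Illumina bead array. The comparison held the 3 arrays labelled Zfy2 and the 3 labelled Zfy1_hi, which are 6 of the 18 arrays of the series, and it was chosen by these labels alone. Every oocyte was at the germinal vesicle (GV) stage, arrested before the first meiotic division, and came from XX females of the outbred MF1 strain aged 4 weeks, 45 to 48 hours after PMSG, a hormone that stimulates follicle growth. Each array measured a pool of about 100 denuded oocytes from 2 or more females of its genotype.

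Zfy2 stands for XX females with a Zfy2 transgene in single copy, and Zfy1_hi for XX females with Zfy1 in multiple copies. A second pair of groups, in batch 1 of the study, served for comparison. Zfy2_Eif2s3y females carried the single-copy Zfy2 transgene and, in a proportion of the cells, a multi-copy Eif2s3y transgene, and the submitters call this sample contaminated. Zfy1_lo females carried Zfy1 in single copy. Zfy2_nf (a non-functional Zfy2 transgene) and XX (no transgene) are used only to show levels. Zfy2 and Zfy1_hi made up batch 2 and shared slide 3, with the Zfy2 arrays at its 3 upper positions and the Zfy1_hi arrays at its 3 lower ones. The transgene, its copy number and the position on the slide therefore changed together between Zfy2 and Zfy1_hi and cannot be told apart. The promoters of the transgenes and the number of founder lines are not given in the sources used here.

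Zfy1 and Zfy2 lie on the mouse Y chromosome and encode closely related zinc finger proteins with an acidic activation domain. They are normally expressed in the testis, where they act around meiosis and in spermatids, and their X-linked relative is Zfx. An XX oocyte has no Y chromosome of its own. A GV oocyte holds a large store of maternal mRNA and makes little new RNA once fully grown. In bulk oocyte RNA, fewer cells with a transcript and less transcript per cell cannot be told apart.

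All levels below are log2 intensities after background correction and quantile normalization, errors of levels are standard deviations (SD, n = 3 arrays), and differences are Zfy2 minus Zfy1_hi on the log2 scale with their standard error (SE). A gene was called at a Benjamini-Hochberg adjusted p under 0.05 in a limma model of all 18 arrays. With 3 arrays a side, 0.1 is the smallest p of an exact permutation test, and limma therefore borrows its estimate of the spread from all groups and genes. A probe was detected on an array where its detection p-value was under 0.05.

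Across the 6 arrays 40.1 to 44.1% of probes were detected in Zfy2 and 42.5 to 43.2% in Zfy1_hi. Arrays of Zfy2 correlated with each other at r = 0.980 to 0.986 over genes, arrays of Zfy1_hi at 0.979 to 0.988, and a Zfy2 array with a Zfy1_hi array at 0.963 to 0.975. The median SD of a gene was 0.17 in Zfy2 and 0.16 in Zfy1_hi. All 29 tested oocyte identity genes (zona pellucida genes, Gdf9, Bmp15, Nobox and others) were detected on each of the 6 arrays. Each of the 6 arrays correlated more with the arrays of its own group than with any array of the other. Zfy2 array 1 had the lowest share of probes detected, 40.1%, against 44.1% and 43.2% on Zfy2 arrays 2 and 3.

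The transgene probes gave the labels a partial check. The Zfy1 probe of lower mean was at 4.66, 4.61 and 4.56 on the Zfy2 arrays, with no array detected, against 6.27, 6.18 and 6.08 on the Zfy1_hi arrays, all detected. It was lower in Zfy2 by 1.57 (log2 difference -1.57, SE 0.15, adjusted p = 1.14e-05 over 19799 probes, limma) and so followed the Zfy1 label. The other Zfy1 probe, detected on all 18 arrays, averaged 5.75 ± 0.07 in Zfy2 and 7.14 ± 0.10 in Zfy1_hi. The 1 Zfy2 probe was at 5.59, 6.18 and 5.89 in Zfy2, against 6.91, 6.92 and 7.24 in Zfy1_hi. It was thus lower in the group that carries the Zfy2 transgene (log2 difference -1.14, SE 0.19, adjusted p = 0.00153, limma), was detected on each array of Zfy2, Zfy1_hi, Zfy2_Eif2s3y and Zfy1_lo and on none of Zfy2_nf or XX, and cannot check the Zfy2 label. The probe of Eif2s3y that was detected in Zfy2_Eif2s3y was detected on none of these 6 arrays, while the other Eif2s3y probe was detected on all 6 and on no Zfy2_Eif2s3y array, at 5.16 ± 0.27 in Zfy2 and 5.01 ± 0.05 in Zfy1_hi. The X-linked relatives were not called: Zfx differed by 0.02 (SE 0.25, adjusted p = 0.978) and Eif2s3x by -0.18 (SE 0.15, adjusted p = 0.564; limma).

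In Zfy2, 374 genes were higher and 539 lower than in Zfy1_hi, which is 3.07% and 4.42% of the 12184 genes tested, or 7.49% in all. Most calls were moderate in size. The median called difference was 0.82 among the higher genes and -0.82 among the lower ones, 118 higher and 189 lower genes passed 2-fold, and 11 higher and 14 lower genes passed 4-fold. The median over all genes was -0.01, and 2476 genes had an unadjusted p under 0.05. The levels of 1593 higher genes (13.1%) and 1733 lower ones (14.2%) did not overlap between the 3 Zfy2 and the 3 Zfy1_hi arrays. Fewer genes were called without single arrays, at 595 without Zfy2 array 1, 556 without Zfy2 array 2, 555 without Zfy1_hi array 1 and 573 without Zfy1_hi array 3. With the slide position as a covariate, estimated from batch 1, 305 genes were called, of which 285 were among the 913.

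**Figure D1:**
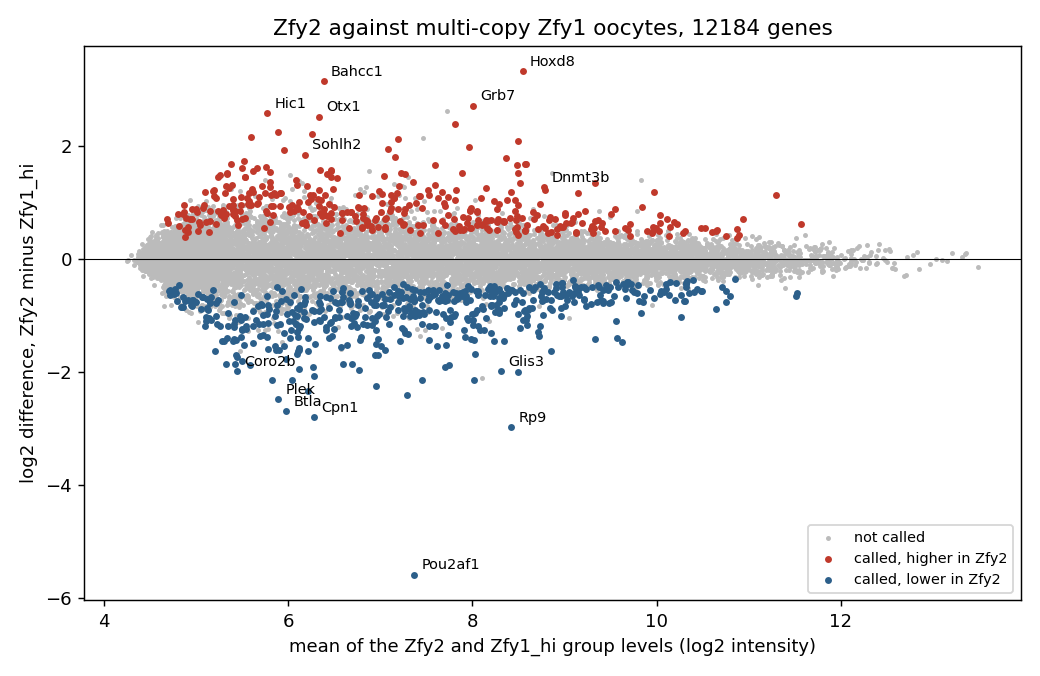
Each point is 1 of 12184 genes. The x axis gives the mean of its Zfy2 and Zfy1_hi levels (log2 intensity), the y axis its log2 difference, Zfy2 minus Zfy1_hi, with called genes in red (374 higher in Zfy2) and blue (539 lower in Zfy2). Pou2af1, at -5.59, lies alone below all other genes.

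The largest rise in Zfy2 was that of Hoxd8. Hoxd8, a homeobox gene of the body axis, was at 10.38, 10.08 and 10.16 in Zfy2, against 7.35, 7.29 and 6.01 in Zfy1_hi. All 3 Zfy2 arrays lay above all Zfy1_hi arrays, as the choice required, and the third Zfy1_hi array was the lowest. The difference was 10.02-fold (log2 3.32, SE 0.27, adjusted p = 2.14e-06). Bahcc1 encodes a chromatin protein with a BAH domain. It was at 7.78, 8.05 and 8.04 in Zfy2, against 4.85, 4.83 and 4.76 in Zfy1_hi, where 1 of 3 arrays detected it. The levels were close together within each group, and the difference was 8.83-fold (log2 3.14, SE 0.13, adjusted p = 3.46e-10). Hic1, a zinc finger repressor known as a tumour suppressor, was at 7.29, 6.95 and 6.93 in Zfy2, against 4.46, 4.52 and 4.47 in Zfy1_hi. It was detected on all Zfy2 arrays and on no Zfy1_hi array, and its level was higher by a factor of at least 4.67 (log2 difference 2.58, SE 0.12, adjusted p = 1.43e-09).

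Otx1, a homeobox gene of the forebrain, was at 7.46, 7.82 and 7.51 in Zfy2, against 5.17, 5.40 and 4.66 in Zfy1_hi (log2 difference 2.52, SE 0.25, adjusted p = 1.85e-05). Tlx1, a homeobox gene needed to form the spleen, was at 6.77, 6.38 and 6.89 in Zfy2, against 4.37, 4.55 and 4.63 in Zfy1_hi. It was detected on no Zfy1_hi array and was at least 3.60-fold higher in Zfy2. Sohlh2, a helix-loop-helix factor of early oocyte growth, was at 7.05, 7.01 and 7.27 in Zfy2, against 4.93, 5.40 and 5.44 in Zfy1_hi (1.85, SE 0.15, adjusted p = 2.14e-06).

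Grb7, an adaptor of ErbB receptors, was at 9.38, 9.51 and 9.19 in Zfy2, against 6.72, 7.50 and 5.73 in Zfy1_hi (2.71, SE 0.34, adjusted p = 1.54e-04). Cul7, a cullin scaffold of ubiquitin ligases, was higher by 2.12 (SE 0.24). Zfp36, whose protein binds AU-rich mRNA and promotes its decay, was at 8.89, 8.98 and 8.97 in Zfy2, against 6.70, 7.39 and 6.82 in Zfy1_hi (1.97, SE 0.21, adjusted p = 4.03e-05). Msi2, a Musashi RNA-binding protein gene, was higher by 1.79 (SE 0.18). Of its 3 other probes, 2 were also called higher and 1 was not called, at -0.54. Ppargc1a, a coactivator of mitochondrial genes, was higher by 1.73 (SE 0.24), and Gldc, an enzyme of the glycine cleavage system, was at least 2.61-fold higher. The other genes among the 20 largest rises were the slow troponin gene Tnnt1 (2.38), Magee1 (2.25), Fam171a2 (2.09), the pheromone receptor genes Vmn1r93 (1.94) and Vmn1r123 (1.69), Rccd1 (1.68), the membrane scaffold gene Mpp1 (1.67) and Syde1 (1.66). Vmn1r genes form a family of near-identical copies, so which member a probe reads is uncertain.

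**Figure D2:**
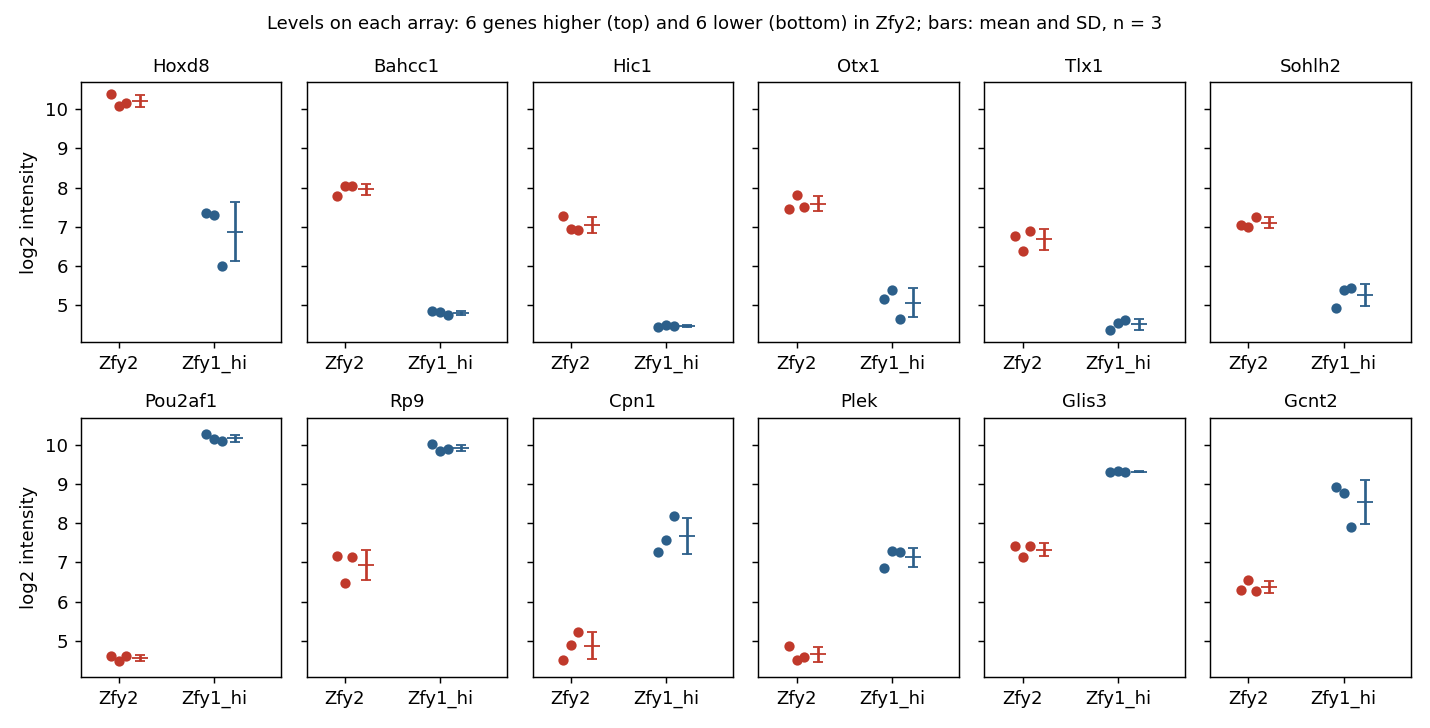
Levels (y axis, log2 intensity) of 6 genes higher (top row) and 6 lower (bottom row) in Zfy2, on each of the 3 Zfy2 arrays (red) and the 3 Zfy1_hi arrays (blue). The bars beside the points are mean and SD. The 12 genes come from a choice of genes whose arrays did not overlap, so no panel shows overlap.

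The largest fall in Zfy2 was that of Pou2af1. Pou2af1, a coactivator of Oct factors in B lymphocytes, was at 4.62, 4.48 and 4.61 in Zfy2, against 10.26, 10.13 and 10.10 in Zfy1_hi. It was detected on no Zfy2 array and on all 3 Zfy1_hi arrays, and the groups lay far apart. It was at least 39.6-fold lower in Zfy2 (log2 -5.59, SE 0.12, adjusted p = 1.66e-14). Rp9, known in human from retinitis pigmentosa, was at 7.17, 6.48 and 7.15 in Zfy2, against 10.004, 9.840 and 9.884 in Zfy1_hi (-2.98, SE 0.22, adjusted p = 7.30e-07). Its second probe gave -2.76. Coro2b, a coronin that binds actin, was at 4.35, 4.49 and 4.51 in Zfy2, against 6.42, 6.33 and 6.56 in Zfy1_hi, and was at least 2.99-fold lower, again with no Zfy2 array detected. A second Coro2b probe was called lower by 0.54.

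Cpn1, the catalytic subunit of carboxypeptidase N, was at 4.53, 4.88 and 5.22 in Zfy2, against 7.27, 7.58 and 8.18 in Zfy1_hi (-2.80, SE 0.27, adjusted p = 1.28e-05). A second Cpn1 probe was called at -1.28, and the dimmest probe gave -0.05 and was not called. Plek, the kinase C substrate pleckstrin, was at 4.88, 4.51 and 4.58 in Zfy2, against 6.86, 7.29 and 7.25 in Zfy1_hi, and at least 4.85-fold lower. These 2 genes did not overlap between the groups, which the choice of the largest falls required. Glis3, a zinc finger transcription factor, was at 7.42, 7.14 and 7.41 in Zfy2, against 9.31, 9.32 and 9.29 in Zfy1_hi (-1.98, SE 0.18, adjusted p = 5.35e-06). All 5 Glis3 probes were called, at -1.57 to -2.32. Gcnt2, which branches I antigen glycans, was at 6.31, 6.56 and 6.27 in Zfy2, against 8.93, 8.77 and 7.89 in Zfy1_hi (-2.15, SE 0.21). A dimmer second Gcnt2 probe gave -0.60 and was not called (adjusted p = 0.277, limma). Dapk2, a calmodulin-dependent death-associated kinase gene, was lower by 2.40 (log2 difference -2.40, SE 0.26, adjusted p = 4.03e-05). Its dimmer second probe gave -0.35 and was not called (adjusted p = 0.402, limma).

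Immune and cell surface genes were also among the 20 largest falls. Btla, an inhibitory receptor of lymphocytes, was at 4.50, 4.82 and 4.57 in Zfy2, against 6.71, 8.68 and 6.58 in Zfy1_hi (-2.69, SE 0.55, adjusted p = 0.00683). Cd200, a membrane glycoprotein of the immunoglobulin family, was at 6.04, 5.53 and 5.91 in Zfy2, against 7.96, 8.79 and 7.51 in Zfy1_hi (-2.26, SE 0.30). The spread among the Zfy1_hi arrays was wide for both genes, and the second array was the highest each time. Ripply3, a corepressor of T-box factors, differed by -2.15, the F-box gene Fbxo33 by -2.14, Nckap5 by -2.14, Micall2 by -2.08, the small GTPase gene Rab32 by -1.97, the cytochrome P450 gene Cyp4v3 by -1.96, the vesicle priming gene Cadps2 by -1.92 and Prox1 by -1.90. Mb21d2 averaged 7.49 ± 0.75 in Zfy2 and 9.49 ± 0.76 in Zfy1_hi. With slide position as a covariate Ripply3 (adjusted p = 0.0575) and Prox1 (0.0769) were not called. Mb21d2 lost its call in the fit of the 6 arrays alone (0.0560) and on these 6 arrays normalized within the batch (0.0594).

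Of the called genes named here, 44 had another kept probe, 68 such probes in all. Of these 68 probes, 56 had the same sign as the probe used, 27 were also called in that direction, and 0 were called in the opposite direction by limma.

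Promoter sequence is given for 3 genes because they carry the clearest contrasts, Hic1 and Bahcc1 detected or raised with Zfy2 and Pou2af1 with Zfy1_hi. The windows are from RefSeq on GRCm38.p6, from 250 bases before to 50 bases after the annotated start, written 5′ to 3′ on the gene's own strand. Capitals mark AGGCCT, a core of the motif known for the related factor ZFX. The motif reads the same on both strands.
Hic1 (chr11:75170206-75170505, minus strand): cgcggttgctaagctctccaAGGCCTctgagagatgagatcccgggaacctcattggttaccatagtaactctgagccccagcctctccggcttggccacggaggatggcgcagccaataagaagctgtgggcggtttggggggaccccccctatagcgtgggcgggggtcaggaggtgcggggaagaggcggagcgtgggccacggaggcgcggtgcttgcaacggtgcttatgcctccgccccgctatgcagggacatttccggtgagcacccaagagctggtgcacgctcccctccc
Bahcc1 (chr11:120232697-120232996, plus strand): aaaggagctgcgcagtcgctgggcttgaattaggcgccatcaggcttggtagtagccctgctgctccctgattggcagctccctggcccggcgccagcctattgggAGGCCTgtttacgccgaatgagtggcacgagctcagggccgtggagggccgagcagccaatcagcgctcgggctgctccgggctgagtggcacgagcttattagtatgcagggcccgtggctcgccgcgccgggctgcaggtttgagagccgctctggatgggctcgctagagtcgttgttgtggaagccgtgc
Pou2af1 (chr9:51213440-51213739, plus strand): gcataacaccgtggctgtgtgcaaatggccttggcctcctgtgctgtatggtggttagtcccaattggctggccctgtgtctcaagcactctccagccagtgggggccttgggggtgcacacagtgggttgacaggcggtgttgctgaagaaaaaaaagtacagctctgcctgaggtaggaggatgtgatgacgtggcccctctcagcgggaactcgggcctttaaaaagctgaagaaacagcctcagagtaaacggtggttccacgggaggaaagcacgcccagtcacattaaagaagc

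The Hic1 and Bahcc1 windows held 1 AGGCCT each and the Pou2af1 window 0. Among genes matched to a promoter in that table, AGGCCT was present for 48 of 310 genes higher in Zfy2 (15.5%), for 46 of 446 lower genes (10.3%) and for 1049 of 9873 genes tested (10.6%). Over all 27025 genes of the table the share was 10.2%. Each of these shares used the first listed window of a gene, and other windows were not searched. These shares describe letters in a window and were not tested.

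Homeobox genes of the Hox clusters set the positions of cells along the body axis, and Polycomb and H3K4 methyltransferase proteins are known to keep such genes off or on. Of 21 Hox genes tested, 5 were higher in Zfy2, 0 were lower, and 16 did not pass, beside 7.49% called among all genes. The median over the 21 was 0.21, against -0.01 over all genes. After Hoxd8, Hoxd9 was at 9.93, 10.10 and 9.97 in Zfy2, against 8.76, 8.70 and 8.50 in Zfy1_hi (1.35, SE 0.16, adjusted p = 1.23e-04). Its second probe gave 1.91. Hoxb2 was detected on no Zfy1_hi array and was at least 1.90-fold higher. Hoxa7, one of the brighter genes at 10.84 ± 0.23 in Zfy2 and 10.36 ± 0.18 in Zfy1_hi, and Hoxd10 differed by 0.48 each. Hoxd10 lost its call without any of the 6 arrays in turn (adjusted p = 0.0596 to 0.134).

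Of 35 other patterning homeobox genes, 8 were higher in Zfy2, 3 were lower and 24 did not pass, beside 7.49% called among all genes, with a median of 0.09. Beside Otx1 and Tlx1, the higher genes were the eye and brain gene Pax6 (6.40, 6.28 and 6.72 in Zfy2, against 5.04, 4.80 and 4.72 in Zfy1_hi), Gsc (at least 2.77-fold), Emx2 (1.11), Isl2 (1.04), Pax9 (at least 1.29-fold) and Hhex (0.63). The lower ones were Prox1, the kidney gene Pax2 (8.26 ± 0.51 in Zfy2 and 9.26 ± 0.19 in Zfy1_hi) and Meis2 (-0.76), a cofactor of Hox proteins. Of these, Prox1 was not called with slide position as a covariate (adjusted p = 0.0769).

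The 3 lists of chromatin genes held 1 called gene each, shares near or below the 7.49% called among all genes. Of 26 Polycomb repressor genes 0 were higher and 1 was lower, Pcgf1 (-0.60), which lost its call without Zfy2 array 1 or 3 or Zfy1_hi array 1 or 3 (adjusted p = 0.0805 to 0.136). Of 17 H3K4 methyltransferase complex genes, Kmt2a alone was called. It was at 6.16, 6.05 and 6.03 in Zfy2, against 4.98, 5.15 and 5.04 in Zfy1_hi (1.03, SE 0.11, adjusted p = 3.73e-05), and its second probe gave 1.25. Of 13 genes of DNA methylation, the methyltransferase gene Dnmt3b alone was called, at 9.41 ± 0.15 in Zfy2 and 8.15 ± 0.14 in Zfy1_hi (1.27, SE 0.14, adjusted p = 4.93e-05).

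**Figure D3:**
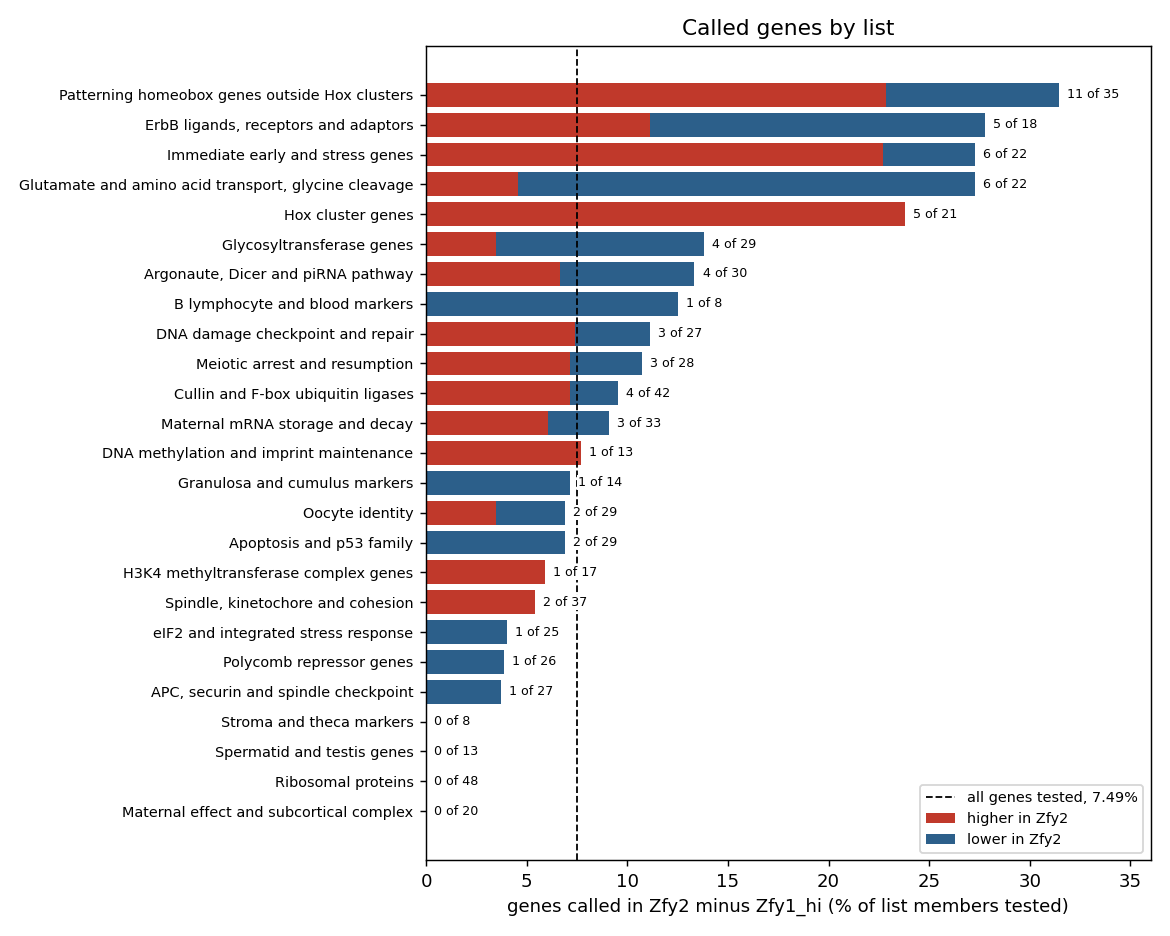
Share of the tested members of 25 gene lists that were called, in percent, with the members higher in Zfy2 in red and those lower in Zfy2 in blue. The dashed line marks the 7.49% called among all genes, and the numbers beside the bars are called and tested members.

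Immediate early and stress genes answer acute signals and damage to proteins. Of 22 tested, 5 were higher in Zfy2, 1 was lower and 16 did not pass (median 0.18), beside 7.49% called among all genes. After Zfp36, the heat shock gene Hspa1b was at 6.06, 6.38 and 5.86 in Zfy2, against 4.71, 4.53 and 4.49 in Zfy1_hi, where no array detected it, and was at least 2.41-fold higher. The small heat shock gene Hspb1 averaged 8.01 ± 0.14 in Zfy2 and 6.51 ± 0.26 in Zfy1_hi, while its dimmer second probe differed by 0.00 (adjusted p = 0.998, limma). Hspa1a was at least 1.33-fold higher, and the zinc finger genes Klf4 and Klf6 differed by 0.84 and -0.83. Hspa1a lost its call with slide position as a covariate (adjusted p = 0.126) and over the mean of its probes (0.108). Hspa1a and Hspa1b are near-identical copies, so what each of their probes reads is uncertain.

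ErbB receptors bind growth factors of the EGF and neuregulin families, which in the ovary relay the ovulatory signal. Of 18 genes tested, 2 were higher in Zfy2 and 3 were lower, beside 7.49% called among all genes. Grb7 and Erbin (0.80), both binding partners of ErbB receptors, were higher. Egfr, the EGF receptor, was at 7.94, 7.46 and 7.12 in Zfy2, against 9.06, 8.97 and 8.85 in Zfy1_hi (-1.45, SE 0.22, adjusted p = 9.28e-04). A second Egfr probe gave -1.48 and the dimmest probe gave 0.08. The ligand gene Nrg1 was at 4.57, 5.17 and 5.42 in Zfy2, against 7.79, 8.24 and 6.11 in Zfy1_hi (-2.33, SE 0.46, adjusted p = 0.00571). Nrg1 was not called in the fit of the 6 arrays alone (adjusted p = 0.0506) or on these 6 arrays normalized within the batch (0.0531). It was also not called with slide position as a covariate (0.0751). Erbb3 was detected on no Zfy2 array and was at least 1.31-fold lower, and lost its call without any of 5 arrays (all but Zfy1_hi array 3, adjusted p = 0.0594 to 0.117).

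Of 22 genes of amino acid transport and glycine metabolism tested, 1 was higher in Zfy2 (Gldc), 5 were lower and 16 did not pass (median 0.01). Among all genes 7.49% were called. The glutamate and cystine carrier Slc7a11 was at 9.07, 9.06 and 9.24 in Zfy2, against 9.85, 9.89 and 9.92 in Zfy1_hi (-0.76, SE 0.11, adjusted p = 3.86e-04). The glutamate carrier Slc1a1 differed by -1.57, the serine hydroxymethyltransferase gene Shmt1 by -1.20, and the cationic amino acid carriers Slc7a2 by -1.04 and Slc7a7 by -1.13. Slc7a2 lost its call without Zfy2 array 2 or Zfy1_hi array 1 (adjusted p = 0.0543 and 0.0618), with slide position (0.0840) and over the mean of its probes, where the difference was -0.31 (0.273). Slc7a7 lost its call without Zfy2 array 1, Zfy1_hi array 1 or Zfy1_hi array 3 (0.103 to 0.118). Of 29 glycosyltransferase genes, C1galt1c1, the chaperone of O-glycan core synthesis, was higher by 0.76, and Gcnt2, Mgat1 (-0.97) and B4galt4 (-0.36) were lower. That is 13.8% called, beside 7.49% among all genes. With slide position as a covariate C1galt1c1 (adjusted p = 0.0563) and Mgat1 (0.0515) were not called. B4galt4 lost its call without any of the 6 arrays in turn (adjusted p = 0.0678 to 0.150).

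In mouse oocytes Dicer makes endogenous siRNAs that Ago2 uses, and Piwi proteins bind piRNAs. Of 30 genes tested, 2 were higher in Zfy2, 2 were lower and 26 did not pass, beside 7.49% called among all genes. Dicer1 was at 9.34, 9.33 and 9.73 in Zfy2, against 10.36, 10.10 and 10.24 in Zfy1_hi (-0.77, SE 0.15, adjusted p = 0.00448), and Piwil1 was at 9.91, 9.60 and 9.74 in Zfy2, against 10.89, 10.81 and 10.65 in Zfy1_hi (-1.03, SE 0.20, adjusted p = 0.00432). Both were lower in Zfy2 on every array, and both lost the call with slide position as a covariate (adjusted p = 0.0731 and 0.0836). A second Dicer1 probe gave -0.24 and was not called (adjusted p = 0.319, limma), while a second Piwil1 probe gave -1.04 and was called. Piwil2 (1.58) and Ago2 (at least 2.37-fold by the probe used) were higher. The other Ago2 probe differed by 0.07 (adjusted p = 0.910, limma) and was detected on 2 Zfy2 and 3 Zfy1_hi arrays. Piwil2 lost its call without any of the 6 arrays in turn (adjusted p = 0.0605 to 0.196), and Ago2 without Zfy2 array 1 or any Zfy1_hi array (0.0543 to 0.0868).

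Of 28 genes of meiotic arrest and resumption, 2 were higher in Zfy2, 1 was lower and 25 did not pass, beside 7.49% called among all genes. Cdc25a, a phosphatase that activates Cdk1, differed by 0.66, Gpr3, the receptor that holds the oocyte in arrest, by 0.55, and the cyclin gene Ccnb3 by -0.57. A second, dimmer Cdc25a probe differed by -0.23, and the mean of both was not called (0.21, adjusted p = 0.252). Each of these calls was lost without single arrays, Cdc25a without Zfy2 array 2 or Zfy1_hi array 3 (adjusted p = 0.0596 at most), Gpr3 without Zfy2 array 1 or Zfy1_hi array 1 or 3 (0.107), and Ccnb3 without Zfy2 array 1 or 2 or Zfy1_hi array 1 or 2 (0.103). Of 27 genes of the anaphase-promoting complex, securin and the spindle checkpoint, Mad2l1bp alone was called (-0.57), and not without Zfy2 array 2 or 3 or Zfy1_hi array 2 or 3 (0.112). Of 37 spindle, kinetochore and cohesion genes, the cohesin gene Stag2 (0.64) and the centromeric histone gene Cenpa (0.41) were higher, Cenpa not without any of the 6 arrays in turn (0.104). The shares called were 3.70% of the checkpoint list and 5.41% of the spindle list, below the 7.49% of all genes.

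Of 33 genes of maternal mRNA storage and decay, Msi2 and Btg4 (0.51), an adaptor of maternal mRNA deadenylation, were higher and the uridylyltransferase gene Tut7 was lower (-0.60). That is 9.09% called, near the 7.49% among all genes. Btg4 lost its call without any of the 6 arrays in turn (adjusted p = 0.0656 at most) and with slide position as a covariate (0.178). Tut7 lost it without Zfy2 array 1 (0.0576), with slide position (0.127) and over the mean of its probes, where the difference was -0.17 (0.565). Of 29 oocyte identity genes, Sohlh2 was higher and Kit, the receptor of Kit ligand, lower at 9.26, 9.28 and 9.76 in Zfy2, against 10.43, 10.42 and 9.68 in Zfy1_hi. Here the groups overlapped, and Kit (-0.75, SE 0.19, adjusted p = 0.0233) lost its call without Zfy2 array 1 or 2 or Zfy1_hi array 1 or 2 (0.106 at most). Called were 6.90% of these 29 genes, near the 7.49% of all genes. No gene was called by limma among 20 maternal effect genes, 13 spermatid genes or 48 ribosomal protein genes. The differences of the maternal effect genes ran between -0.30 and 0.84 and those of the ribosomal protein genes between -0.45 and 0.58.

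Of 29 apoptosis and p53 family genes 0 were higher and 2 were lower, or 6.90%, near the 7.49% called among all genes. Apaf1, the scaffold of the apoptosome, was at 6.46, 6.43 and 6.63 in Zfy2, against 7.35, 7.07 and 7.18 in Zfy1_hi (-0.69, SE 0.12, adjusted p = 0.00239). It was not called with slide position (0.0511) or over the mean of its probes (0.140). Trp73, detected on no Zfy2 array, was at least 1.10-fold lower and lost its call without any array but Zfy1_hi array 2 (0.189 at most). Of 27 genes of DNA damage and repair, the histone gene H2ax (0.53) and Parp1 (0.89) were higher and the polymerase gene Polk was lower (-1.78). H2ax lost its call without Zfy2 array 2 or Zfy1_hi array 2 (0.0574 at most), Parp1 without Zfy2 array 1 or 3 or Zfy1_hi array 2 or 3 (0.139 at most), and Polk with slide position (0.0746). Of 25 eIF2 and integrated stress response genes, 1 was lower, the eIF2 subunit gene Eif2s2 (-0.61), which lost its call without Zfy2 array 1 or 2 or Zfy1_hi array 1 or 2 (0.0746 at most). Of 42 cullin and F-box genes, Cul7, Fbxw11 (0.59) and Cul4a (0.57) were higher and Fbxo33 was lower. Fbxw11 kept its call only without Zfy2 array 3, and Cul4a only without Zfy2 array 2 or Zfy1_hi array 2 (0.128 and 0.0884 at most without the others). The shares called were 11.1% of the DNA damage list, 4.00% of the eIF2 list and 9.52% of the cullin and F-box list, beside 7.49% among all genes.

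With slide position as a covariate Ago2, B4galt4, Ccnb3, Cenpa, Cul4a, Eif2s2, Erbb3, Fbxw11, Fdx1, Gpr3, H2ax, Hoxd10, Kit, Mad2l1bp, Parp1, Pcgf1, Piwil2, Ppp2r1b, Slc7a7 and Trp73 were not called (adjusted p = 0.0669 to 0.392, limma). In the fit of the 6 arrays alone Ago2, B4galt4, Cdc25a, Cenpa, Fbxw11, Fdx1, Gpr3, H2ax, Hoxd10, Kit, Mad2l1bp, Parp1, Pcgf1, Ppp2r1b, Slc7a7 and Trp73 were not called (adjusted p = 0.0503 to 0.130). Hoxd10 and Trp73 were also not called without background correction (0.215 and 0.0658) or in the authors' normalized values (0.109 and 0.0721), and Cenpa over the mean of its probes (0.135).

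Markers of other ovarian and blood cells were read beside these results. Beside 7.49% called among all genes, 0 of 14 granulosa and cumulus markers tested were higher in Zfy2 and 1 was lower. Their summed linear intensity was 1112 to 1212 in Zfy2 and 1423 to 1543 in Zfy1_hi. Without Cyp11a1, which starts steroid synthesis from cholesterol, the sums overlapped at 1005 to 1024 in Zfy2 and 955 to 1063 in Zfy1_hi. Cyp11a1 was at 7.70, 7.11 and 6.74 in Zfy2, against 8.91, 8.82 and 8.87 in Zfy1_hi (-1.68, SE 0.24, adjusted p = 5.54e-04), while its 2 dimmer probes differed by 0.14 and -0.09 and the mean of its probes was not called (adjusted p = 0.0899). The granulosa genes Amh, Inha, Star and Fst were detected on none of the 6 arrays, and Foxl2 and Fshr on 1 Zfy2 array each, while Gja1, Has2, Inhba, Kitl, Nr5a2 and Col4a1 were detected on all 6. Of 8 stroma and theca markers 0 were called by limma, with sums of 687 to 874 in Zfy2 and 772 to 935 in Zfy1_hi, and Col1a1, Pdgfra and Cyp17a1 were detected on no array, while Acta2, Myh11 and Pecam1 were detected on all 6 and Nr2f2 on 3 Zfy2 and 2 Zfy1_hi arrays. The 8 B lymphocyte and blood markers summed to 243 to 274 in Zfy2 and to 282 to 309 in Zfy1_hi. Among them 1 was called, H2-Aa, an MHC class II gene, at 4.72, 4.55 and 5.01 in Zfy2, against 6.53, 6.27 and 6.03 in Zfy1_hi (-1.52, SE 0.24, adjusted p = 0.00112). That is 12.5% of the 8, beside 7.49% among all genes. H2-Aa is part of these sums, and sums without it were not taken. Ptprc, Cd79b, Cd22, Blnk and Cd74, which mark B lymphocytes or leukocytes, were detected on none of the 6 arrays. Ms4a1, Ebf1 and Lyz2 of the same list were detected on all 6, Csf1r on 3 Zfy2 and 2 Zfy1_hi arrays, and Pou2f2 on 2 Zfy2 and 3 Zfy1_hi arrays. Pou2af1 was at 10.16 ± 0.08 in Zfy1_hi. The part of Cyp11a1 and H2-Aa, or of the cells they mark, in the other results was not tested.

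On or off patterns were counted from detection alone, by the 1 probe that stands for each gene. Of the genes tested, 63 were detected on all 3 Zfy2 arrays and no Zfy1_hi array, and 91 on all 3 Zfy1_hi arrays and no Zfy2 array, while 8246 were detected on all 6. Of the 63, 29 were called, and of the 91, 35 were. These genes were chosen by a difference in detection, so a share above the 7.49% called among all genes is built into the choice. The same pattern held in batch 1 (Zfy2_Eif2s3y against Zfy1_lo) for 8 of the 63 and 10 of the 91. The share of all genes with that batch 1 pattern was not counted, so whether these counts are high cannot be told. At a detection p under 0.01, 62 and 82 genes took the place of the 63 and the 91.

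Batch 1 offered a second contrast of a Zfy2 with a Zfy1 transgene, on arrays that the first did not use. It differs in copy number of Zfy1, in Eif2s3y and in slide, since all 3 Zfy2_Eif2s3y arrays lay on slide 2 and 2 of the 3 Zfy1_lo arrays on slide 1. In Zfy2_Eif2s3y, 380 genes were higher and 536 lower than in Zfy1_lo (3.12% and 4.40% of 12184, or 7.52% in all). With slide as a term of the model 503 genes passed the threshold, and within slide 2, where Zfy1_lo had 1 array, 224 were called with the spread taken from the other groups. Leaving out single arrays gave 511, 526 and 610 genes (Zfy2_Eif2s3y arrays 1, 2 and 3) and 492 genes (Zfy1_lo array 2).

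Most genes that differed between Zfy2 and Zfy1_hi differed the same way in batch 1. Of the 374 higher genes 352 (94.1%) had a positive difference there, and of the 539 lower genes 497 (92.2%) a negative one, beside 67.6% of the same sign over all genes. In batch 1, 169 of the 374 were called higher (45.2% of these and 44.5% of the 380), and 267 of the 539 were called lower (49.5% of these and 49.8% of the 536). None of the higher genes and 1 of the lower ones were called in the opposite direction by limma. Of genes past 2-fold, 73 of 118 higher (61.9%) and 122 of 189 lower (64.6%) were called in batch 1. The median batch 1 difference was 0.57 for the higher and -0.60 for the lower genes. Over all 12184 genes, which are not independent, the differences correlated at r = 0.616 (Pearson) and 0.530 (Spearman). Both contrasts came from 1 fit with a shared spread per gene, and a gene of small spread is thus more easily called in each.

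Examples run through the groups named above. Hic1 was at least 4.67-fold higher in batch 2 and at least 4.47-fold higher in batch 1, where it was detected on no Zfy1_lo array. Otx1 differed by 2.52 in batch 2 and 2.72 in batch 1, Zfp36 by 1.97 and 1.78, and Glis3 by -1.98 and -2.12. Hoxd8 differed by 3.32 and 2.37, Egfr by -1.45 and -1.78, and Cyp11a1 by -1.68 and -1.65. Slc1a1 and Shmt1 had the greater difference in batch 1, at -3.23 and -2.27. The test of the difference between the batches did not call any of these 9 genes (limma, adjusted p of 0.683 or more).

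**Figure D4:**
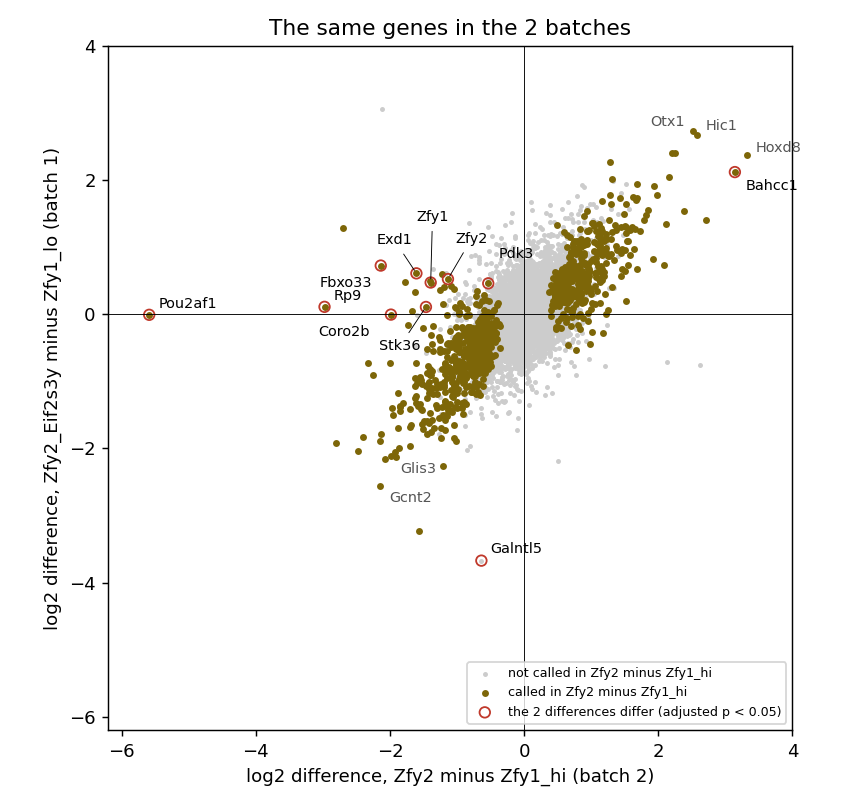
Each point is 1 of 12184 genes, with its log2 difference Zfy2 minus Zfy1_hi (batch 2) on the x axis and Zfy2_Eif2s3y minus Zfy1_lo (batch 1) on the y axis. Genes called in batch 2 are brown, and the 11 genes whose differences differed between the batches are circled.

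The difference of the 2 differences was called for 11 genes (0.0903% of 12184), of which 2 were positive (0.0164%) and 9 negative (0.0739%), and 777 had an unadjusted p under 0.05 (limma). Pou2af1 was detected on no array of batch 1, where it was at 4.47 ± 0.12 in Zfy2_Eif2s3y and 4.48 ± 0.17 in Zfy1_lo. Across the 6 groups its level was high in Zfy1_hi alone. Coro2b had the same pattern, at 4.44 ± 0.13 in Zfy2_Eif2s3y and 4.44 ± 0.07 in Zfy1_lo. Both genes were detected in no other group and met the filter of 3 detected arrays through Zfy1_hi alone. Detection in Zfy1_hi was thus a condition of testing them. Rp9 was at 6.04 ± 0.53 in Zfy2_Eif2s3y and 5.93 ± 0.08 in Zfy1_lo, so that its level in Zfy2 (6.93 ± 0.39) also lay above the batch 1 groups. Fbxo33 differed by -2.14 in batch 2. In batch 1 it was detected on all Zfy2_Eif2s3y and no Zfy1_lo arrays and was not called (adjusted p = 0.0872). The kinase gene Stk36 (-1.46 in batch 2 and 0.11 in batch 1), the piRNA pathway gene Exd1 (-1.61 and 0.61) and Pdk3 (-0.54 and 0.46) also had a negative difference in batch 2 and a positive one in batch 1. Of those batch 1 differences, that of Pdk3 was called (adjusted p = 0.0315).

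Bahcc1 was higher with Zfy2 in both batches, by at least 3.69-fold in batch 1, at 6.72 ± 0.23 in Zfy2_Eif2s3y and 4.60 ± 0.09 in Zfy1_lo. It was detected on no Zfy1_lo array, so the batch 1 difference is a bound. Galntl5, a relative of GalNAc transferases, was called within batch 1 and not within batch 2. It was at 4.80 ± 0.30 in Zfy2_Eif2s3y and 8.47 ± 0.71 in Zfy1_lo (-3.67), against 4.80 ± 0.17 in Zfy2 and 5.44 ± 0.46 in Zfy1_hi (-0.64). The probes that stand for Zfy1 and Zfy2 were the other 2 genes of the 11. For Zfy1 this is the probe detected on all 18 arrays, and the probe that followed the Zfy1 label was not called in this test (-0.84, adjusted p = 0.371 over probes). Without Zfy1_hi array 3 the count was 7, and over the other single arrays left out it was 8 to 11.

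**Figure D5:**
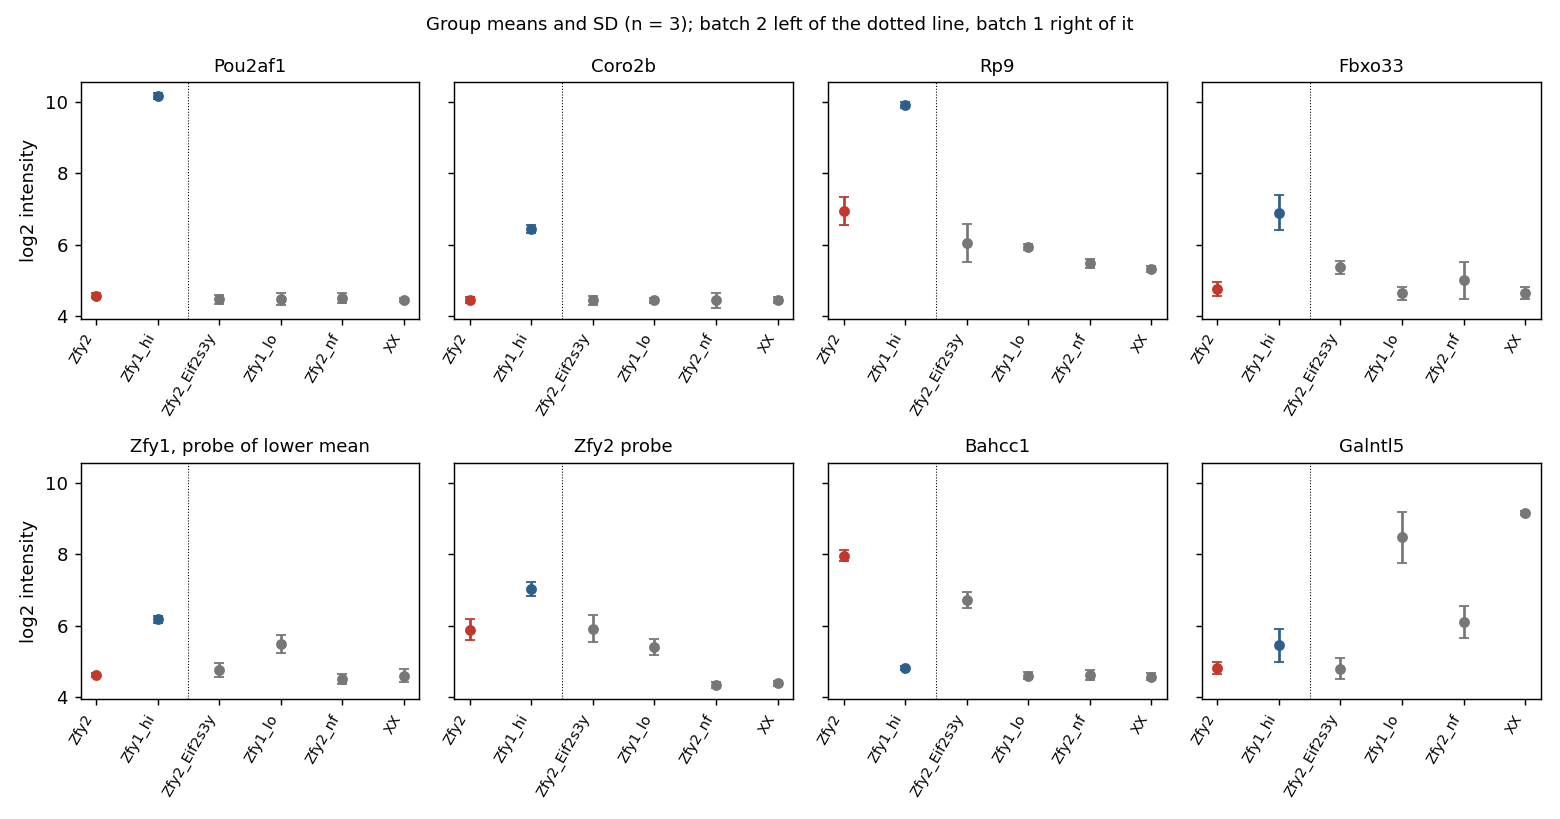
Means and SD (n = 3) of 6 genes and 2 transgene probes in the 6 groups (y axis, log2 intensity), with the batch 2 groups Zfy2 (red) and Zfy1_hi (blue) left of the dotted line and the batch 1 groups (grey) right of it. Pou2af1 and Coro2b are high in Zfy1_hi alone, Bahcc1 is high in Zfy2 and Zfy2_Eif2s3y, and Galntl5 is high in Zfy1_lo and XX.

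Of the 11 genes, 3 lie on chromosome 9 (Pou2af1, Rp9 and Coro2b), which holds 5.62% of the genes tested, and 2 on the Y chromosome. Around the 3 genes on chromosome 9, none of the next 3 tested genes on either side was called lower by limma. Of 6 neighbours of Pou2af1, 3 were higher in Zfy2 (Btg4, Fdx1 at 0.42 and Ppp2r1b, a phosphatase 2A subunit gene, at 1.12) and 0 were lower. Among all genes 3.07% were called higher and 4.42% lower. Fdx1 lost its call without any array but Zfy1_hi array 3, and Ppp2r1b without Zfy2 array 1 or 2 or Zfy1_hi array 1 or 2 (adjusted p = 0.150 and 0.102 at most). Over the mean of its probes Ppp2r1b differed by 0.34 (0.252). None of 6 neighbours of Rp9, of Coro2b or of Bahcc1 was called by limma. Around Hoxd8, Hoxd9 and Hoxd10 were higher, while Hoxd12 (0.11) and Hoxd1 (0.63, adjusted p = 0.0791) were not called.

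Around Cpn1 on chromosome 19, 3 of 6 neighbours were also called lower in Zfy2, beside 4.42% of all genes. The 3 were Bloc1s2 (-0.82, SE 0.15, adjusted p = 0.00355), Cutc (-0.82, SE 0.19, adjusted p = 0.0153) and Cox15, which was detected on no Zfy2 array and was at least 1.62-fold lower (adjusted p = 0.0326). None of the 3 was called in batch 1, at -0.27 for Bloc1s2, -0.49 for Cutc and -0.02 for Cox15 (adjusted p = 0.340, 0.140 and 0.973, limma). Cox15 lost its call without any of the 6 arrays in turn (0.118 at most), without background correction (0.0641) and with slide position (0.0626). Cutc lost its call without Zfy2 array 1 or 2 or Zfy1_hi array 2 (0.0565 at most) and over the mean of its probes, where the difference was -0.30 (0.567). Btla and Cd200, both among the 20 largest falls, are adjacent genes on chromosome 16, a pair looked up after their values were seen. Over the chromosomes with more than 300 genes tested, the share called ran between 5.44% (chromosome 5) and 9.52% (chromosome 9).

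For the called genes, oocytes without a transgene lay nearer to Zfy1_hi. The XX mean was closer to the Zfy1_hi mean than to the Zfy2 mean for 300 of the 374 higher genes (80.2%) and 438 of the 539 lower genes (81.3%), beside 58.5% of all genes. Bahcc1 was at 4.57 and Hic1 at 4.35 in XX, near their Zfy1_hi levels, and Glis3 was at 9.09 and Dapk2 at 8.54. Btla (4.72 in XX), Rp9 (5.31) and Pou2af1 (4.45) lay on the Zfy2 side. XX was measured in batch 1, so in these levels batch and genotype cannot be told apart, and no test was made.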

How the data were processed

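RNA of 18 oocyte pools, 3 for each of 6 groups, was amplified, biotin labelled and hybridized to Illumina bead arrays, per the labels' protocols. The authors deposited bead intensities that were not normalized between arrays, with a detection p-value per probe, per the file headers. A second deposited table held intensities normalized between arrays by a method not given in the sources used here, and served as an alternative. GenomeStudio is named, per the submitters' processing notes, without version or settings.

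From the deposited intensities, log2 levels were computed with neqc (limma 3.58.1, R 4.3.3, offset 16), which estimates the background from the detection p-values and quantile normalizes the 18 arrays together. Of 45281 probes, 34885 had 1 gene symbol, 18 several and 10378 none. A named probe was kept if its detection p was under 0.05 on 3 or more arrays. The probe of highest mean stood for each gene, which left 12184 of 19057 genes. For 4855 genes more than 1 probe was kept. A linear model of 6 group means (lmFit and eBayes, 12 residual degrees of freedom, two-sided) gave each difference, with Benjamini-Hochberg adjustment over all 12184 genes. Where a gene was detected on no array of a group, "at least" folds set the other group's mean against, per array, the higher of the lowest detected signal and the gene's own signal. The model was tested on simulated data. For arrays, the number per group limits the precision. Replicates are described as biological by the submitters.

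Named genes were all probes of the transgenes and their homologues, the 20 largest called rises and falls whose arrays did not overlap, up to 4 called members per list by p, up to 5 genes per sign of the difference test, and up to 3 neighbours on each side of 5 genes. Clone and locus names were left out of the rankings of rises, falls and the difference test. Further called list members, Stk36 and Pdk3, and the neighbours of Btla and Coro2b were added after their values were seen. The members and the gene lists were chosen with earlier results of these data known. Alternatives were the arrays of each comparison alone, normalization within batch, no background correction, the authors' normalized table, 2 other detection filters, the mean of probes, a trended robust prior, slide, slide position and replicate number as terms, and leaving out each array. Replicate number was fitted on the arrays of each comparison alone. For Zfy2 against Zfy1_hi, normalization within batch was fitted on the arrays of batch 2 alone.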

Additional observations from a re-analysis of the deposited data

Results flagged for a closer look

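For 11 genes the difference of Zfy2 from Zfy1_hi differed from that of Zfy2_Eif2s3y from Zfy1_lo by the contrast of the 2 differences (limma, adjusted over 12184 genes). Pou2af1 had a difference of the differences of -5.58 on the log2 scale (adjusted p = 3.97e-12), Coro2b of -1.98 (adjusted p = 2.68e-05) and Rp9 of -3.09 (adjusted p = 1.04e-04). In all 3 the Zfy1_hi arrays were high, and Pou2af1 and Coro2b passed the detection filter through these arrays alone. Fbxo33 had -2.86 (adjusted p = 0.00116) and Exd1 -2.22 (adjusted p = 0.0394). Bahcc1 had 1.02 (adjusted p = 0.0474), with higher levels in the Zfy2 transgene group in both batches and no Zfy1_lo array detected. Galntl5 had 3.04 (adjusted p = 0.00597), from a difference within batch 1. The probes that stand for the transgenes gave -1.87 for Zfy1 (adjusted p = 0.00286) and -1.66 for Zfy2 (adjusted p = 0.0155). This Zfy1 value is from the probe with signal in every group, and the Zfy1 probe that followed the label gave -0.84 and was not called (adjusted p = 0.371 over probes). The other 2 genes were Stk36 (-1.57, adjusted p = 0.00597) and Pdk3 (adjusted p = 0.0394). Batch, the copy number of Zfy1 and Eif2s3y differ between the contrasts and cannot be told apart.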

How the results depend on the processing

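Between Zfy2 and Zfy1_hi, 913 genes were called. A block for the replicate number was fitted on the arrays of each comparison alone. The count was 660 on the 6 arrays alone and 321 on these with the block. It was 305 with slide position as a covariate, and 555 to 657 without single arrays. Between Zfy2_Eif2s3y and Zfy1_lo it was 916, against 534 on these arrays alone, 303 with the replicate block, 503 with slide as a block, 224 within slide 2 and 492 to 809 without single arrays. The difference of the differences was called for 11 genes, against 3 with the replicate block, 6 with slide position and 7 to 11 without single arrays. The cause of these changes was not tested. The other settings left each count within 1.5 times, at 627 to 1049 for Zfy2 against Zfy1_hi. Same-numbered arrays did not deviate together (correlations -0.05 to 0.04), so the pairing is by number only and no array was treated as paired. Of 90 called genes named by rule, 64 kept their call without each array in turn, and 47 kept it under all 17 settings. Under the replicate block on the 6 arrays 35 lost it, against 18 on these arrays without the block. With slide position 34 lost it, while 2 of the 90 differences were over 1.5 times smaller. None changed sign among the 90. Without background correction, and in the authors' normalized table, 44 of the 90 differences were over 1.5 times smaller, and over the mean of probes 21 were, with 9 calls lost. On the 6 arrays alone 18 calls were lost, and 19 after normalization within batch, which was also fitted on these 6 arrays. Slide position was estimated from batch 1 alone, since on slide 3 it changes with the group. Genes near background have compressed differences, and their levels are bounds.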
